A study of Mus musculus with 32 samples.

Results

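The genes described here are 34 genes of cholangiocytes, the epithelial cells that line the bile ducts, and of the ductular reaction, the outgrowth of small ductules and duct-like cells that accompanies cholestatic liver injury. They were chosen by name, as the rows of the deposited gene table with these symbols, and make up 34 of the 54532 genes listed. Each symbol matched 1 row. The list holds 5 keratins (*Krt7*, *Krt8*, *Krt18*, *Krt19* and *Krt23*), 11 genes of the cell surface, adhesion and junctions (*Epcam*, *Tspan8*, *Cldn4*, *Cldn7*, *Cdh1*, *Prom1*, *Cd24a*, *Muc1*, *Vtcn1*, *Itgb4* and *Itgb6*), 7 genes of bile modification and transport (*Cftr*, *Sctr*, *Slc4a2*, *Aqp1*, *Ggt1*, *Atp1b1* and *Anxa4*), 4 genes of cilium and tubule structure (*Pkhd1*, *Pkd2*, *Bicc1* and *Dcdc2a*), 6 transcription factors (*Sox9*, *Sox4*, *Onecut1*, *Onecut2*, *Ehf* and *Elf3*) and 1 secreted protein (*Wfdc2*).

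Bile ducts are a minor compartment of the liver by cell number, and cholangiocytes modify the bile made by hepatocytes by adding bicarbonate and water under the control of secretin. In cholestasis, ductules multiply at the portal margin, and cells with both hepatocyte and biliary features appear that switch on biliary keratins, EPCAM and the transcription factor SOX9. The enzyme CYP2C70 makes the hydrophilic muricholic acids of mice, so mice without it keep a more hydrophobic bile acid pool. SC-435 is an inhibitor of the ileal bile acid transporter (IBAT) and lowers the return of bile acids from the gut to the liver.

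Liver RNA from 32 mice of the C57BL/6 strain, all 12 weeks old, was sequenced. The 8 groups of 4 mice were the females and the males of each of 4 kinds: WT mice on chow, WT mice on chow with SC-435, *Cyp2c70* KO mice on chow, and *Cyp2c70* KO mice on chow with SC-435. The SC-435 diet held 0.006% of the inhibitor, about 11 mg/kg/day. The KO line carries a CRISPR-Cas9 deletion that takes in exon 2 of *Cyp2c70* and descends from 1 founder, so all KO mice share that allele, which all liver cells carry.

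Library totals were 36476021 to 44771350 counts, with a median of 42232543. Levels are given in CPM, that is, counts relative to the TMM-adjusted total of each library. They are written as the mean ± SD of 4 mice or mouse by mouse in the order of the replicate numbers. Reads still mapped to *Cyp2c70* in KO livers, which keep the other exons. Its level was 165 ± 12.6 CPM in female KO and 704 ± 104 CPM in female WT mice on chow. In males it was 174 ± 14.8 against 626 ± 109 CPM. No KO liver reached the level of any WT liver of the same sex and diet. The male WT chow library number 1 stood apart, with a TMM factor of 0.622 where the other 3 of its group had 0.964 to 1.0. Its mean correlation with its group was 0.918, and that of the others 0.962 to 0.964. Values of male KO against WT mice on chow are from all 8 mice unless they are said to leave this library, the first WT mouse, out. In RNA from whole liver, fewer or more biliary cells and less or more RNA in each of them cannot be told apart.

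The list includes factors that bind DNA, and the promoters of its members were read for short motifs of the ETS (*Ehf*, *Elf3*), SOX, HNF1 and ONECUT families. RefSeq promoter windows on GRCm38.p6 were found for 25 of the 34 members, and their 250 bases before the start site were searched on both strands. Of several start sites, the one nearest to the start of the gene in the deposited table was taken. The letters GGAAG were present in 12 of the 25 windows (48.0%) and in 64.1% of all 32851 windows of this length, AACAAT in 0 of 25 against 9.42%, GTTAAT in 2 of 25 (8.0%) against 6.43%, and ATCAAT in 2 of 25 (8.0%) against 6.72%. The motifs do not contain one another. The 4 members whose windows hold the HNF1 half-site GTTAAT or the ONECUT letters ATCAAT are printed 5′ to 3′ on the gene's strand, with every match in capitals, to show where the letters lie. The windows are those of *Krt8* (chr15:102004343-102004592, minus strand), *Tspan8* (chr10:115817034-115817283, plus strand), *Pkhd1* (chr1:20618058-20618307, minus strand) and *Dcdc2a* (chr13:25055754-25056003, plus strand). In the deposited table *Tspan8* begins at base 115816832 and *Krt8* at base 102004482, so that the first of these windows lies inside the gene as listed there and the second in part.
Krt8: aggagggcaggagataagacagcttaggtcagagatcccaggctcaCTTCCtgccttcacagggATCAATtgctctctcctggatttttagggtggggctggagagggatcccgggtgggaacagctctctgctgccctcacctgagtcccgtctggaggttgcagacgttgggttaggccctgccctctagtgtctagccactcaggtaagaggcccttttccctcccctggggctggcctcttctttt
Tspan8: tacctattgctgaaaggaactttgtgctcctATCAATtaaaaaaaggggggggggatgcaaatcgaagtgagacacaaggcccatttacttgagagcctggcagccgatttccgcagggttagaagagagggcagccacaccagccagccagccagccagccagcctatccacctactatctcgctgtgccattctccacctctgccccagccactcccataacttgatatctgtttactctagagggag
Pkhd1: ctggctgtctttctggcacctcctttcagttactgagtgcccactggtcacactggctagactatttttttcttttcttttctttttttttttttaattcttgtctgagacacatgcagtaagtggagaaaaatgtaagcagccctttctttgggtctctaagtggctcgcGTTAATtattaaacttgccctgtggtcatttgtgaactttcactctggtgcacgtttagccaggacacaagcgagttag
Dcdc2a: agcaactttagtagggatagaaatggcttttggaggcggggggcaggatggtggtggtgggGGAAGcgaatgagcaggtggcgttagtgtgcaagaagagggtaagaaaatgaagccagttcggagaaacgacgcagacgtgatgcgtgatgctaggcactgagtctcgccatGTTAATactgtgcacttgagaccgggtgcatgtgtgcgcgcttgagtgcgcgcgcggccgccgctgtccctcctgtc

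The capitals mark ATCAAT 186 to 181 bases before the start site of *Krt8*, with the ETS letters on the other strand at 204 to 200, and ATCAAT at 219 to 214 in *Tspan8*. GTTAAT lies 79 to 74 bases before the start of *Pkhd1* and 77 to 72 bases before that of *Dcdc2a*, which also holds GGAAG at 189 to 185. A match describes the letters of the window, and binding was not measured. On chow, *Krt8*, *Tspan8* and *Pkhd1* rose in female KO livers and *Dcdc2a* did not pass the test, with the values given among their groups.

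The members spanned a wide range of levels. Per kb of gene length, the highest in female WT livers on chow were *Krt18* (115 CPM per kb) and *Krt8* (114 CPM per kb), the keratin pair that hepatocytes also make. Next came *Aqp1* (60.4 CPM per kb), a water channel of cholangiocytes and of endothelium. The keratins more restricted to ducts were far lower, *Krt19* at 0.992 and *Krt7* at 0.169 CPM per kb. The lowest were *Cldn4*, *Sctr*, *Ggt1*, *Cftr* and *Itgb6*, from 0.0638 down to 0.00753 CPM per kb. *Itgb6*, *Sctr* and *Ggt1* were too low for the test of KO against WT on chow in either sex. *Itgb6*, a subunit of an integrin that activates TGF-beta, had 0 to 4 counts in female WT livers on chow and 6 to 31 in female KO livers on chow. *Sctr*, the secretin receptor, had 1 to 14 counts in female WT and 4 to 18 in female KO livers on chow, and *Ggt1*, a gamma-glutamyltransferase, had 2 to 8 and 8 to 16. In males on chow, *Itgb6* had 0 to 5 counts in WT and 4 to 25 in KO livers, *Sctr* 0 to 3 and 4 to 15, and *Ggt1* 1 to 6 and 2 to 45.

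**Figure D1:**
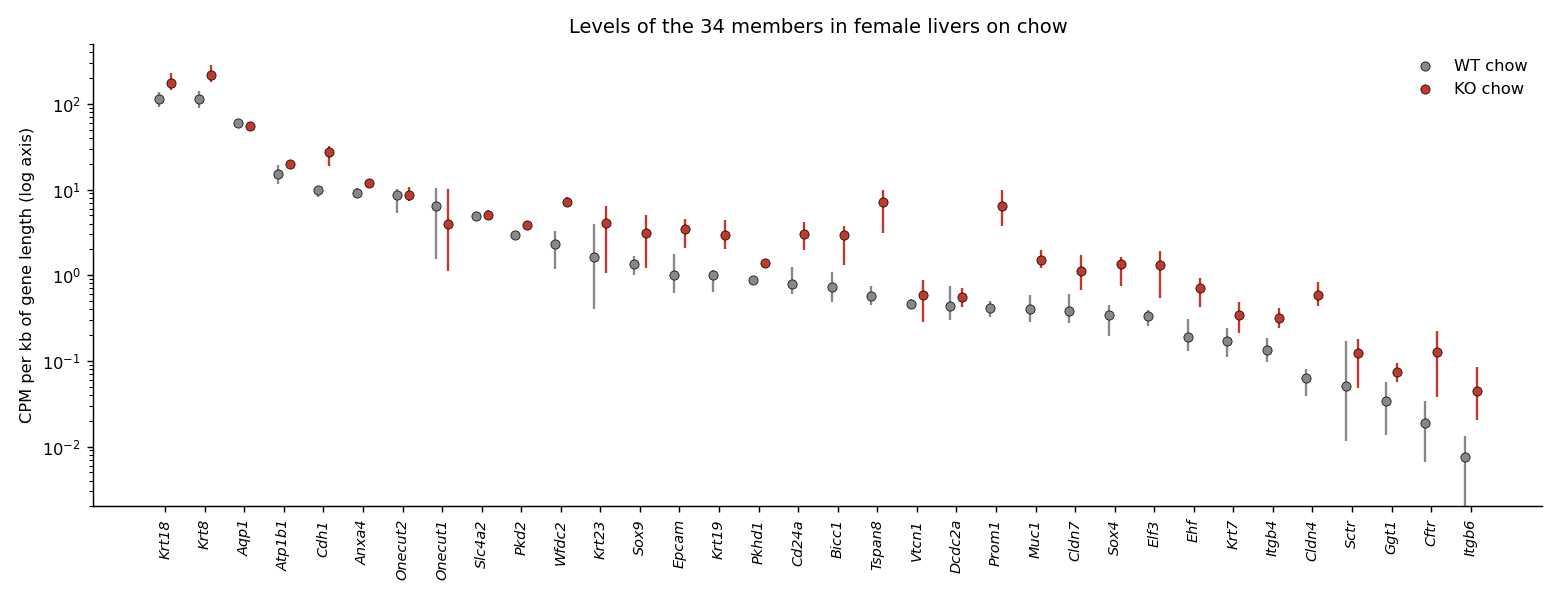
Mean level of each of the 34 members in 4 female WT livers (grey) and 4 female KO livers (red) on chow, in CPM per kb of gene length on a log axis, ordered by the WT level; lines run from the lowest to the highest mouse. Krt18 and Krt8 lead at 115 and 114 CPM per kb in WT livers, and the line of Itgb6 leaves the axis because 1 WT mouse had no count.

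On chow, most members were higher in KO than in WT livers. In females, 21 of the 31 members tested rose in KO mice and 0 fell at an adjusted p under 0.05 (edgeR's quasi-likelihood test, Benjamini-Hochberg over all genes), where 9.83% of all 16205 genes tested rose and 5.05% fell. The members' median log2 fold change was 1.31, with 28 of 31 positive, against -0.02 over all genes. Of the 21, 16 also had a log2 fold change beyond 1, the study's second threshold, as did 5.67% of all genes. The largest rises among members that also passed the filter on low counts in WT livers alone were those of *Prom1* (3.94 ± 0.29, adjusted p = 2.7e-04) and *Tspan8* (3.67 ± 0.36, adjusted p = 0.0013). Here and throughout, a value in parentheses after a gene is its log2 fold change ± SE with the adjusted p. By role, 9 of 10 surface and junction genes tested rose, 3 of 5 keratins, 3 of 4 cilium and tubule genes, 3 of 6 transcription factors, 2 of 5 bile modification genes and *Wfdc2*. *Cldn4* and *Cftr* are in these counts but passed the filter only through KO livers, where they were high, so they had to differ. Of the other 29 members, a split made after the data were seen, 19 rose, with a median of 1.22.

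In males on chow, 6 of 31 members tested rose in KO mice (*Epcam*, *Tspan8*, *Cdh1*, *Cd24a*, *Cftr* and *Sox9*) and 0 fell, against 0.933% and 0.151% of all 15862 genes. The median of the members was 1.33, with 27 of 31 positive, and that of all genes 0.04. *Cftr* and *Cldn4* passed the filter only through KO livers here too, and of the other 29 members 5 rose. Without the WT library that stood apart, 17 members rose, 1 (*Onecut2*) fell and the median was 1.45, against 4.38% and 2.92% of all genes. The count in males rested on single libraries: 0 members passed without WT chow mouse 2, 3 or 4 or without KO chow mouse 3, and 1 passed without KO chow mouse 1 or 4. The share of all genes called in those fits is not given.

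Many of these genes were lower in KO livers on SC-435 than in those on chow. In females, 14 of 32 members tested fell and 1 (*Vtcn1*) rose with SC-435, against 9.23% and 8.56% of all 16332 genes, with a median of -0.53 and 27 of 32 negative. In males, 20 of 31 members fell and 2 (*Vtcn1* and *Aqp1*) rose, against 8.36% and 8.80% of all 15984 genes, with a median of -1.22 and 27 of 31 negative. The medians over all genes were -0.02 and -0.03. Of the 29 members of each sex that passed the filter in WT livers alone, 13 fell in females and 19 in males. The comparisons with KO mice on chow share those mice with the comparisons of KO and WT on chow, so a rise and a fall of 1 gene are not independent. In females the count that fell became 9 without KO chow mouse 2 and 8 without KO SC-435 mouse 1, 2 or 3. In males it became 12 without KO chow mouse 3 and 10 without KO SC-435 mouse 1 or 4. The share of all genes called in these fits is not given.

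**Figure D2:**
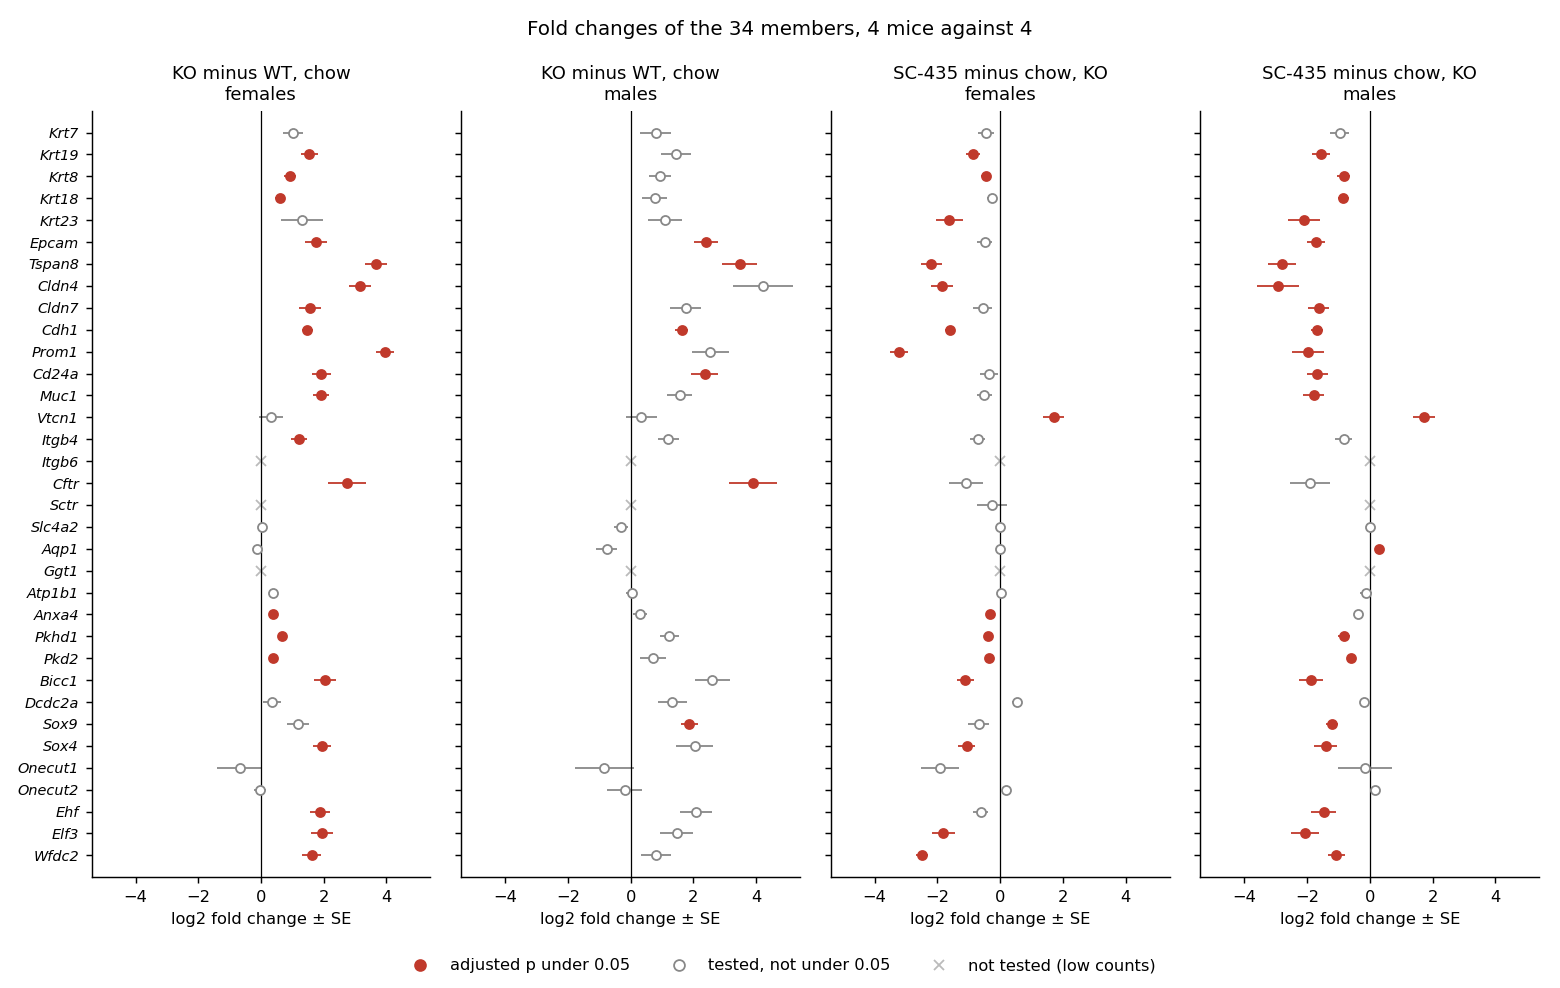
Log2 fold change with its SE (lines) for the 34 members in 4 comparisons of 4 mice against 4; filled red points have an adjusted p under 0.05, open points do not, and crosses mark members too low for the test. In females 21 members lie right of 0 with a filled point for KO against WT on chow, and 14 lie left of 0 with a filled point for SC-435 against chow in KO.

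Among the keratins, the intermediate filament proteins of epithelium, *Krt19*, *Krt8* and *Krt18* rose in female KO livers on chow. *Krt19* (chr11:100140810-100148665), a standard marker of bile ducts, was at 2.04, 1.97, 2.16 and 1.19 CPM in the 4 female WT livers on chow. KO livers on chow had 4.74, 8.17, 5.02 and 3.71 CPM and treated KO livers had 3.53, 2.5, 2.73 and 3.09 CPM. Each of the 4 KO livers on chow exceeded each WT liver and each treated KO liver, with KO chow mouse 2 highest. *Krt19* rose in KO against WT (1.55 ± 0.27, adjusted p = 0.0062) and fell with SC-435 in KO (-0.87 ± 0.23, adjusted p = 0.030). *Krt8* was at 279, 205, 236 and 176 CPM in female WT. On chow the KO livers were at 390.4, 563, 404 and 351 CPM, and treated KO livers were at 334, 297, 312 and 297 CPM. These groups did not overlap either, and *Krt8* rose in KO livers (0.92 ± 0.18, adjusted p = 0.0091) and fell with SC-435 (-0.46 ± 0.14, adjusted p = 0.044). *Krt18*, its partner, was at 200.2, 156, 173 and 132 CPM in female WT and 248, 329.7, 229.8 and 211 CPM in female KO livers on chow, without overlap (0.61 ± 0.17, adjusted p = 0.034). A pseudogene of *Krt8* has a row of its own in the table, with 0.121% of the counts of *Krt8*. *Krt18* in treated female KO livers was at 229, 215, 196 and 202 CPM, overlapping the untreated KO livers (-0.27 ± 0.13, adjusted p = 0.18).

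In males the keratins were read beside the library that stood apart. *Krt19* was at 3.35, 0.821, 1.04 and 1.24 CPM in the male WT livers on chow, where the first mouse is that library. The male KO livers on chow were at 4.42, 2.35, 5.95 and 4.28 CPM. The first WT mouse lay within the KO range and the other 3 lay below it. The log2 fold change of *Krt19* was 1.45 ± 0.49 (adjusted p = 0.20) with that mouse and 2.05 ± 0.34 (adjusted p = 0.018) without it. *Krt8* was at 549.5, 249.5, 230.3 and 245 CPM in male WT and 472, 394, 758 and 723 CPM in male KO livers on chow. Its log2 fold change was 0.93 ± 0.35 (adjusted p = 0.25) with that mouse, which lay within the KO range, and 1.3 ± 0.24 (adjusted p = 0.023) without it. With SC-435, *Krt19* in male KO livers was at 1.49, 1.51, 1.80 and 0.966 CPM, below every untreated KO liver (-1.56 ± 0.30, adjusted p = 0.011). *Krt8* was at 314, 308, 361 and 326 CPM in treated male KO livers, also below every untreated one (-0.84 ± 0.20, adjusted p = 0.025), and *Krt18* fell as well (-0.84 ± 0.17, adjusted p = 0.015).

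*Krt23*, a keratin induced in injured liver, was variable. It was at 1.11, 0.634, 2.21 and 6.24 CPM in female WT and 6.73, 10.1, 6.90 and 1.65 CPM in female KO livers on chow. The groups overlapped, with WT mouse 4 high and KO mouse 4 low, and the difference did not pass (1.31 ± 0.67, adjusted p = 0.22). In males it was at 2.42, 1.29, 3.52 and 1.56 CPM in WT and 2.82, 1.54, 6.01 and 7.83 CPM in KO livers on chow (1.10 ± 0.54, adjusted p = 0.37, and 1.12 ± 0.59, adjusted p = 0.25 without the first WT mouse). Treated KO males were at 0.998, 1.68, 0.660 and 0.917 CPM. *Krt23* fell with SC-435 in both sexes (-1.63 ± 0.43, adjusted p = 0.028 in females and -2.09 ± 0.50, adjusted p = 0.025 in males). *Krt7* had log2 fold changes of 1.03 ± 0.32 (adjusted p = 0.0544) in female and 0.81 ± 0.49 (adjusted p = 0.46) in male KO against WT livers on chow. Without the first male WT mouse the value of *Krt7* in males was 1.39 ± 0.35 (adjusted p = 0.0521). In the fits that left out 1 mouse, *Krt18* in females on chow passed in 2 of 8 (highest adjusted p = 0.089). *Krt8* and *Krt23* under SC-435 in KO females passed in 1 of 8 each (highest 0.12 and 0.082), and *Krt19* there in 3 of 8 (highest 0.092).

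Surface and junction genes held the largest log2 fold changes of the list in KO females on chow. *Prom1* (chr5:43993620-44102032) encodes prominin-1, a glycoprotein of membrane protrusions that marks progenitor-like epithelial cells. It was at 3.57, 2.35, 2.96 and 3.02 CPM in female WT livers on chow. It reached 46.7, 71.3, 39.0 and 26.9 CPM in KO livers on chow and 4.56, 3.93, 5.31 and 5.75 CPM in treated KO livers. The lowest untreated KO liver was above every WT liver and every treated KO liver, and *Prom1* fell with SC-435 (-3.23 ± 0.28, adjusted p = 5.9e-04). Its rise and its fall were each called in 8 of 8 fits that left out 1 mouse. In male livers *Prom1* was at 0.950 ± 0.415 CPM in WT and 5.41 ± 4.09 CPM in KO mice on chow (2.54 ± 0.59, adjusted p = 0.088, and 2.31 ± 0.61, adjusted p = 0.057 without the first WT mouse), and fell to 1.39 ± 0.370 CPM with SC-435 (-1.96 ± 0.50, adjusted p = 0.030).

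*Tspan8* (chr10:115816832-115849893), a tetraspanin of epithelial membranes, was at 1.03, 0.799, 1.26 and 0.760 CPM in female WT livers on chow. Its levels in KO livers were 16.7, 16.4, 10.9 and 5.34 CPM on chow and 2.69, 3.06, 1.78 and 3.21 CPM with SC-435. Male WT livers on chow had 0.273, 1.04, 0.793 and 0.389 CPM, male KO livers on chow 4.04, 3.50, 11.8 and 8.22 CPM and treated male KO livers 1.17, 1.34, 0.845 and 0.570 CPM. In both sexes the untreated KO livers lay above both other groups without overlap. KO chow mouse 4 was the lowest of the females and mouse 2 the lowest of the males. *Tspan8* rose in male KO livers (3.48 ± 0.56, adjusted p = 0.032, and 3.23 ± 0.55, adjusted p = 0.019 without the first WT mouse) and fell with SC-435 in both sexes (-2.20 ± 0.34, adjusted p = 0.0040 in females and -2.80 ± 0.44, adjusted p = 0.0051 in males). *Cldn4*, a tight junction claudin, was at 0.129, 0.117, 0.146 and 0.0712 CPM (3.0 to 6.0 counts) in female WT and 1.04, 1.51, 0.786 and 0.898 CPM (37.0 to 78.0 counts) in female KO livers on chow. It passed the filter only through the KO livers, so its fitted value (3.16 ± 0.35, adjusted p = 0.0014) is a description. With SC-435 it was at 0.164, 0.459, 0.258 and 0.273 CPM (7 to 20 counts) in KO females, below every untreated KO liver. It came into this comparison through the untreated KO livers, so the fitted fall (-1.86 ± 0.35, adjusted p = 0.0081) is a description too.

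*Cdh1*, which encodes E-cadherin and is made by periportal hepatocytes as well as by ducts, rose in both sexes. In males it was at 57.4, 41.3, 50.3 and 54.4 CPM in WT livers on chow. KO livers on chow had 153, 114, 162 and 187 CPM and treated KO livers had 44.5, 61.1, 36.6 and 48.5 CPM. The untreated KO livers lay above the others without overlap (1.63 ± 0.21, adjusted p = 0.014 for KO against WT, 1.68 ± 0.18, adjusted p = 0.0052 without the first WT mouse, and -1.69 ± 0.18, adjusted p = 0.0012 for SC-435 in KO). The treated KO livers overlapped the WT livers. In females *Cdh1* went from 45 ± 5.14 CPM in WT to 126 ± 28.4 CPM in KO livers on chow (1.48 ± 0.17, adjusted p = 0.0016) and 41.8 ± 3.38 CPM in treated KO livers (-1.59 ± 0.16, adjusted p = 0.0010). *Epcam*, an adhesion protein of ducts and hepatic progenitors, was at 1.21, 1.72, 1.49 and 0.752 CPM in male WT. On chow the KO livers were at 4.47, 4.33, 10.1 and 7.86 CPM, and treated KO livers were at 2.12, 1.95, 2.01 and 2.03 CPM. *Epcam* rose in male KO livers on chow (2.40 ± 0.39, adjusted p = 0.034, and 2.36 ± 0.42, adjusted p = 0.020 without the first WT mouse) and fell with SC-435 (-1.72 ± 0.28, adjusted p = 0.0061). The treated livers lay above all 4 WT livers on chow, a difference that did not pass (0.65 ± 0.28, adjusted p = 0.59). In females *Epcam* rose from 2.06 ± 1.04 to 7.03 ± 2.36 CPM (1.76 ± 0.34, adjusted p = 0.0091), and treated KO livers were at 4.97 ± 0.701 CPM (-0.50 ± 0.23, adjusted p = 0.16).

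**Figure D3:**
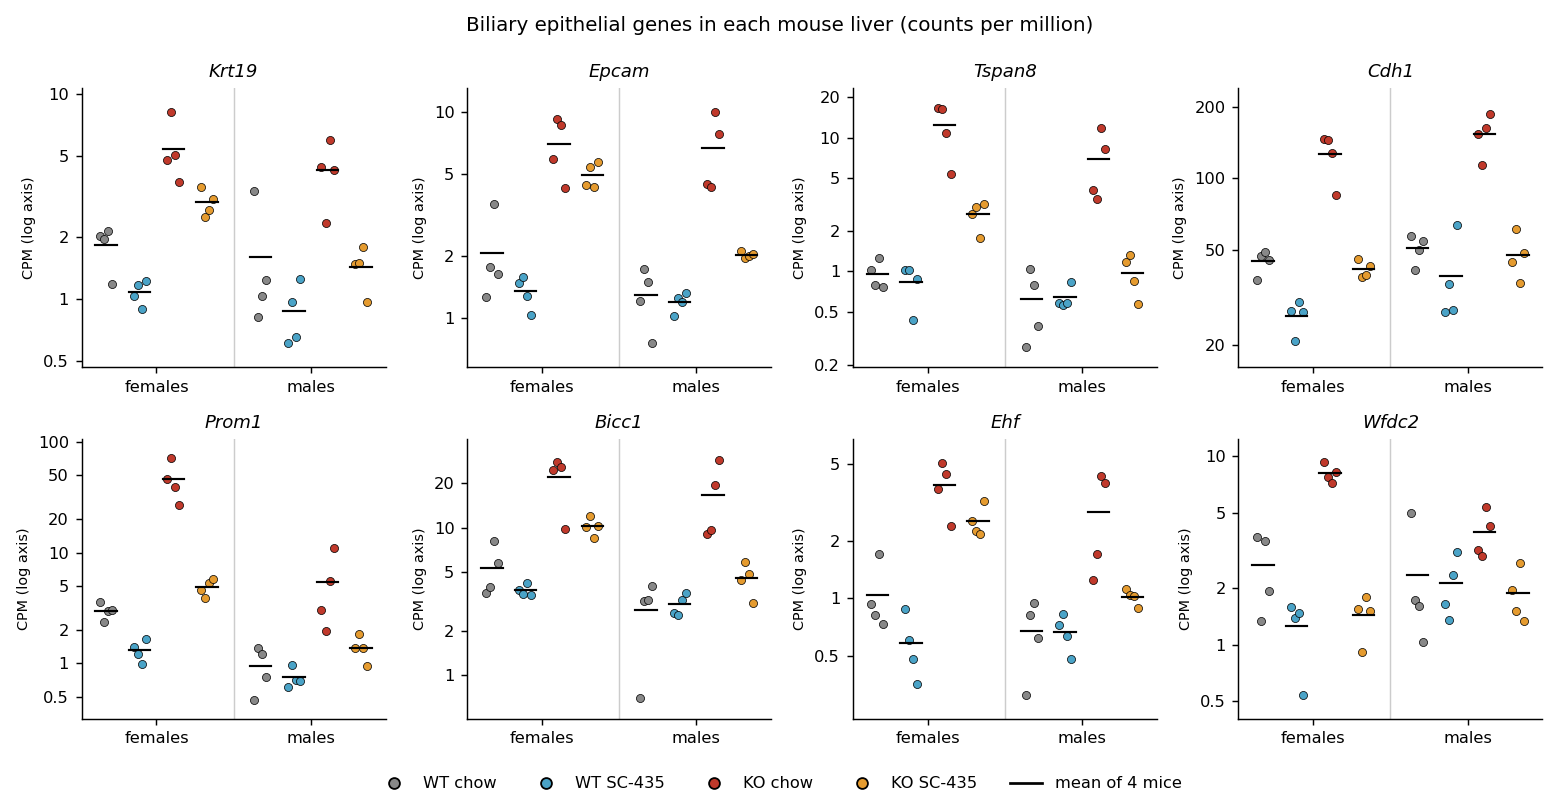
Level of 8 members in each of the 32 livers, in CPM on a log axis; each point is 1 mouse, the bar is the mean of 4 mice, and colours give genotype and diet. In both sexes the KO livers on chow (red) hold the highest group mean for all 8 genes. In females the treated KO livers (orange) stay above both WT groups for Krt19, Epcam, Tspan8, Prom1, Bicc1 and Ehf. They overlap WT livers on chow for Cdh1 and both WT groups for Wfdc2.

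A further 4 surface genes rose in female KO livers on chow. They were *Cd24a*, a small glycoprotein of epithelial and progenitor cells (1.93 ± 0.30, adjusted p = 0.0038), the mucin *Muc1* (1.91 ± 0.26, adjusted p = 0.0023), the claudin *Cldn7* (1.56 ± 0.35, adjusted p = 0.016) and the integrin subunit *Itgb4* (1.22 ± 0.27, adjusted p = 0.014). None of these 4 passed as lower with SC-435 in KO females, with log2 fold changes from -0.72 ± 0.23 for *Itgb4* to -0.35 ± 0.28 for *Cd24a*. In KO males, *Cd24a* (-1.67 ± 0.34, adjusted p = 0.014), *Muc1* (-1.80 ± 0.33, adjusted p = 0.0096) and *Cldn7* (-1.63 ± 0.33, adjusted p = 0.014) fell with SC-435. The call for *Cldn7* in females on chow was lost without WT chow mouse 2 (adjusted p = 0.0514). In males on chow *Epcam* and *Tspan8* passed in 2 and *Cdh1* in 4 of the 8 fits that left out 1 mouse (highest adjusted p = 0.13, 0.12 and 0.070).

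Of the genes of bile modification and transport, 2 of the 5 tested rose in KO females on chow. *Cftr*, the chloride channel that drives ductal secretion, was at 0.0517, 0.188, 0.267 and 0.0712 CPM (2.0 to 11.0 counts) in female WT and 0.948, 1.03, 1.71 and 0.291 CPM (12.0 to 85.0 counts) in female KO livers on chow. In males it was at 0, 0.0821, 0.0495 and 0.0778 CPM (0.0 to 3.0 counts) in WT and 0.293, 0.483, 1.57 and 1.06 CPM (13.0 to 78.0 counts) in KO livers on chow. The groups did not overlap in either sex (2.75 ± 0.60, adjusted p = 0.014 in females, 3.91 ± 0.76, adjusted p = 0.04996 in males, and 3.59 ± 0.73, adjusted p = 0.029 in males without the first WT mouse). *Cftr* passed the filter only through KO livers, where it was high, so these values describe counts that had to differ. With 0 to 3 counts in each male WT liver, the fitted size of the rise in males depends on the fit and is not a bound. *Cftr* did not pass as lower with SC-435 in KO mice (-1.09 ± 0.54, adjusted p = 0.19 in females and -1.91 ± 0.62, adjusted p = 0.063 in males). In males on chow the call was kept in 1 of 8 fits that left out 1 mouse (highest adjusted p = 0.18).

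*Anxa4*, a calcium-dependent membrane-binding protein, changed little in size, at 40.9, 38.6, 43.2 and 47.8 CPM in female WT. It reached 56.4, 60.3, 52.4 and 53.4 CPM in KO livers on chow and 42.7, 46.5, 42.3 and 45.3 CPM in treated KO livers. The untreated KO livers did not overlap either group (0.38 ± 0.09, adjusted p = 0.024 for KO against WT and -0.33 ± 0.07, adjusted p = 0.013 for SC-435 in KO). In males *Anxa4* was at 55.1, 42.6, 41.0 and 39.7 CPM in WT and 44.5, 42.5, 57.2 and 69.6 CPM in KO livers on chow. These overlapped and did not pass (0.30 ± 0.21, adjusted p = 0.52, and 0.40 ± 0.17, adjusted p = 0.18 without the first WT mouse). *Atp1b1*, a subunit of the sodium pump, was at 46.1, 35.3, 46.8 and 60.2 CPM in female WT and 58.4, 64.2, 62.8 and 62.0 CPM in female KO livers on chow, overlapping through WT mouse 4 (0.38 ± 0.14, adjusted p = 0.094).

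The water channel *Aqp1* was at 386, 141, 147 and 148 CPM in male WT and 108, 110.3, 132 and 122 CPM in male KO livers on chow. All 4 KO livers lay below the WT livers, and the WT mean was set by the first mouse, the library that stood apart (-0.76 ± 0.33, adjusted p = 0.32, and -0.28 ± 0.09, adjusted p = 0.10 without it). *Aqp1* in KO males on SC-435 was 144 ± 9.38 CPM (0.30 ± 0.09, adjusted p = 0.0481), a call lost in each of the 8 fits that left out 1 mouse and under 5 of 7 other settings. The anion exchanger *Slc4a2*, which exports bicarbonate into bile, did not pass in females, with means from 40.3 ± 3.13 CPM in WT on chow to 41.9 ± 4.13 CPM in KO on chow (0.05 ± 0.10, adjusted p = 0.78). By annotation, exons of *Atp1b1* and *Slc4a2* overlap genes on the other strand (*Nme7* and *Fastk*) over 18.7% and 13.7% of their exon bases. Whether the counting used strand is not given in the sources used here, and without it reads of such partners cannot be told apart.

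Among the cilium and tubule genes, which when mutated cause cystic disease of kidney and liver, *Pkhd1*, *Bicc1* and *Pkd2* rose in female KO livers on chow. *Bicc1*, an RNA-binding protein of tubule epithelium, was at 3.62, 3.97, 8.16 and 5.72 CPM in female WT. Its levels in KO livers were 24.8, 28.1, 25.9 and 9.78 CPM on chow and 10.1, 12.1, 8.51 and 10.3 CPM with SC-435. KO chow mice 1, 2 and 3 lay above all WT and treated KO livers, while KO chow mouse 4 fell within the range of the treated KO livers (2.04 ± 0.35, adjusted p = 0.0052 for KO against WT and -1.11 ± 0.27, adjusted p = 0.022 for SC-435 in KO). In males *Bicc1* was at 0.702, 3.20, 3.25 and 3.99 CPM in WT. KO livers on chow had 9.02, 9.69, 19.4 and 28.8 CPM and treated KO livers had 4.45, 5.88, 4.89 and 3.10 CPM. The untreated male KO livers were above both other groups, without a pass over WT (2.61 ± 0.57, adjusted p = 0.072) unless the first WT mouse was left out (2.29 ± 0.43, adjusted p = 0.025). *Bicc1* fell with SC-435 in male KO livers (-1.87 ± 0.38, adjusted p = 0.014).

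*Pkhd1*, which encodes fibrocystin of the primary cilium, was at 11.0, 11.5, 13.7 and 13.7 CPM in female WT. On chow the KO livers were at 18.1, 21.7, 20.4 and 20.3 CPM, and treated KO livers were at 14.7, 14.7, 15.1 and 17.5 CPM. The 3 groups did not overlap, with the treated KO livers in between (0.68 ± 0.11, adjusted p = 0.0041 for KO against WT and -0.37 ± 0.09, adjusted p = 0.020 for SC-435 in KO). In males it was at 3.94, 8.26, 8.27 and 7.49 CPM in WT and 12.9, 12.6, 18 and 21.2 CPM in KO livers on chow, also without overlap (1.24 ± 0.30, adjusted p = 0.093 with all mice and 1.03 ± 0.20, adjusted p = 0.026 without the first WT mouse). *Pkd2*, the cation channel polycystin-2, was at 26, 32.1, 31.4 and 30.3 CPM in female WT. It reached 43.5, 36.8, 42.1 and 35.3 CPM in KO livers on chow and 31.2, 31.4, 29.3 and 30.8 CPM in treated KO livers. The untreated KO livers lay above both other groups (0.39 ± 0.10, adjusted p = 0.029 for KO against WT and -0.36 ± 0.08, adjusted p = 0.016 for SC-435 in KO). *Dcdc2a*, a doublecortin-domain protein of cilia, was at 3.59 ± 1.77 CPM in female WT and 4.6 ± 0.983 CPM in female KO livers on chow (0.35 ± 0.30, adjusted p = 0.46). In males it was at 0.429, 2.60, 1.83 and 1.69 CPM in male WT and 3.88, 3.75, 4.54 and 4.15 CPM in male KO livers on chow. The male groups did not overlap, and *Dcdc2a* had log2 fold changes of 1.33 ± 0.45 (adjusted p = 0.20) with all mice and 1.02 ± 0.21 (adjusted p = 0.030) without the first WT mouse. In the fits that left out 1 mouse, *Pkd2* in females on chow passed in 1 of 8 (highest adjusted p = 0.074). Under SC-435 in KO females *Bicc1* passed in 2 and *Pkhd1* in 4 of 8 (highest 0.069 each).

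Of the transcription factors, *Sox4*, *Ehf* and *Elf3* rose in female KO livers on chow. *Sox4* was at 0.931, 1.88, 2.14 and 1.69 CPM in female WT. Its levels in KO livers were 7.41, 6.95, 7.82 and 3.57 CPM on chow and 1.96, 2.96, 3.56 and 3.75 CPM with SC-435. The untreated KO livers were above the WT livers, and KO chow mouse 4 overlapped the treated KO livers (1.95 ± 0.30, adjusted p = 0.0033 for KO against WT and -1.07 ± 0.27, adjusted p = 0.023 for SC-435 in KO). *Ehf*, an ETS factor of epithelia, was at 0.931, 0.822, 1.70 and 0.736 CPM in female WT. KO livers on chow had 3.71, 5.11, 4.48 and 2.38 CPM and treated KO livers had 2.55, 2.25, 2.17 and 3.23 CPM. Every KO liver, treated or not, was above every WT liver on chow. *Ehf* rose in KO on chow (1.89 ± 0.32, adjusted p = 0.0050) and did not pass as lower with SC-435 (-0.62 ± 0.23, adjusted p = 0.095). *Elf3*, a related ETS factor, was at 0.801, 0.752, 0.874 and 0.570 CPM in female WT. On chow the KO livers were at 3.17, 4.20, 3.10 and 1.19 CPM, and treated KO livers were at 0.865, 0.873, 0.516 and 1.05 CPM. Treated KO and WT livers overlapped, and *Elf3* rose in KO on chow (1.95 ± 0.35, adjusted p = 0.0067) and fell with SC-435 (-1.82 ± 0.36, adjusted p = 0.010).

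*Sox9*, which specifies biliary fate, rose in male KO livers on chow. It was at 5.46, 4.68, 2.90 and 3.03 CPM in male WT. It reached 15.2, 11.6, 14.9 and 15.7 CPM in KO livers on chow and 5.79, 5.4, 8.66 and 4.83 CPM in treated KO livers. The untreated KO livers stood above both groups without overlap (1.88 ± 0.26, adjusted p = 0.018 for KO against WT, 2.04 ± 0.21, adjusted p = 0.0047 without the first WT mouse, and -1.22 ± 0.19, adjusted p = 0.0049 for SC-435 in KO). The call over WT passed in 2 of 8 fits that left out 1 mouse (highest adjusted p = 0.078). In females *Sox9* was at 5.59 ± 1.51 CPM in WT and 12.8 ± 6.63 CPM in KO livers on chow, just short of the threshold (1.18 ± 0.36, adjusted p = 0.0543). In males, *Ehf* was at 0.312, 0.821, 0.941 and 0.622 CPM in WT and 1.24, 1.70, 4.35 and 4.0 CPM in KO livers on chow (2.09 ± 0.52, adjusted p = 0.10, and 1.85 ± 0.49, adjusted p = 0.059 without the first WT mouse). *Sox4* was at 0.273, 1.4, 1.91 and 1.4 CPM in male WT and 3.16, 2.60, 5.14 and 9.31 CPM in male KO livers on chow (2.04 ± 0.59, adjusted p = 0.15, and 1.71 ± 0.46, adjusted p = 0.059 without the first WT mouse). Both were without overlap and without a pass, and both fell with SC-435 (-1.47 ± 0.40, adjusted p = 0.036 for *Ehf* and -1.41 ± 0.37, adjusted p = 0.033 for *Sox4*). An antisense gene, *Gm26735*, overlaps 54.6% of the exon bases of *Sox4*, and *Gm20649* on the same strand overlaps 52.8% of those of *Onecut1*. The counts of both members are uncertain by what these neighbours share.

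*Wfdc2*, a secreted protein with WAP domains, rose in female KO livers and fell with SC-435. It was at 3.72, 1.34, 3.52 and 1.92 CPM in female WT. Its levels in KO livers were 9.22, 7.69, 7.14 and 8.25 CPM on chow and 1.54, 0.919, 1.78 and 1.5 CPM with SC-435. The untreated KO livers were above all others, and 3 of the 4 treated KO livers lay within the WT range and the fourth below it (1.61 ± 0.29, adjusted p = 0.0067 for KO against WT and -2.49 ± 0.20, adjusted p = 4.5e-04 for SC-435 in KO). In males *Wfdc2* was at 4.95, 1.72, 1.61 and 1.04 CPM in WT and 3.16, 2.95, 5.36 and 4.26 CPM in KO livers on chow, overlapping through the first WT mouse. Its log2 fold change was 0.81 ± 0.48 (adjusted p = 0.45) with that mouse and 1.45 ± 0.30 (adjusted p = 0.029) without it. It fell with SC-435 in KO males (-1.07 ± 0.28, adjusted p = 0.031).

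With both genotypes on SC-435, a comparison that shares no mouse with that on chow, many members were still higher in KO females. Of 29 members tested, 19 were higher and 0 lower, against 6.23% and 4.69% of all 15869 genes, and the median log2 fold change was 0.86, against -0.0043 over all genes. Of the 21 members that had risen on chow, 19 were tested here and 15 passed again. These were 7 that had not passed as lower with SC-435 in KO females (*Krt18*, *Epcam*, *Cldn7*, *Cd24a*, *Muc1*, *Itgb4* and *Ehf*), though the mean of each was lower there. The other 8 had passed as lower (*Krt19*, *Krt8*, *Tspan8*, *Cdh1*, *Prom1*, *Anxa4*, *Pkhd1* and *Bicc1*). The remaining 4 of the 19 had passed as lower with SC-435 and did not pass here, *Pkd2* (0.19 ± 0.06, adjusted p = 0.061), *Sox4* (1.05 ± 0.33, adjusted p = 0.071), *Elf3* (0.52 ± 0.28, adjusted p = 0.26) and *Wfdc2* (0.21 ± 0.33, adjusted p = 0.73). *Krt7* (1.43 ± 0.25, adjusted p = 0.0080), *Krt23* (1.02 ± 0.27, adjusted p = 0.037), *Dcdc2a* (0.86 ± 0.14, adjusted p = 0.0048) and *Sox9* (0.96 ± 0.27, adjusted p = 0.0485) passed here and not on chow. From chow to SC-435 the mean of *Krt7* went from 1.19 to 0.664 CPM in WT and from 2.45 to 1.78 CPM in KO females. *Krt23* went from 2.55 to 1.01 and from 6.35 to 2.05 CPM, and *Sox9* from 5.59 to 4.08 and from 12.8 to 7.92 CPM. *Dcdc2a* went from 3.59 to 3.65 and from 4.6 to 6.63 CPM. *Ehf* had the largest log2 fold change of the 29 (2.13 ± 0.27, adjusted p = 0.0019), followed by *Cd24a* (2.01 ± 0.27, adjusted p = 0.0023).

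In males on SC-435, 0 of 29 members passed in edgeR's test in either direction, with 11 at an unadjusted p under 0.05 and 1 (*Epcam*, named after its value was seen) passing in DESeq2. Of all 15434 genes 8.85% had an unadjusted p under 0.05, and 0.0130% were called higher and 0.0194% lower. The members' median was 0.29, with 23 of 29 positive, against -0.01 over all genes. *Epcam* was at 2.02 ± 0.0713 CPM in treated KO and 1.19 ± 0.125 CPM in treated WT males without overlap (0.76 ± 0.16, adjusted p = 0.24). *Tspan8* was at 0.980 ± 0.341 and 0.640 ± 0.127 CPM with overlap (0.61 ± 0.30, adjusted p = 0.60). Whether this difference between the genotypes differed between females and males was not tested.

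**Figure D4:**
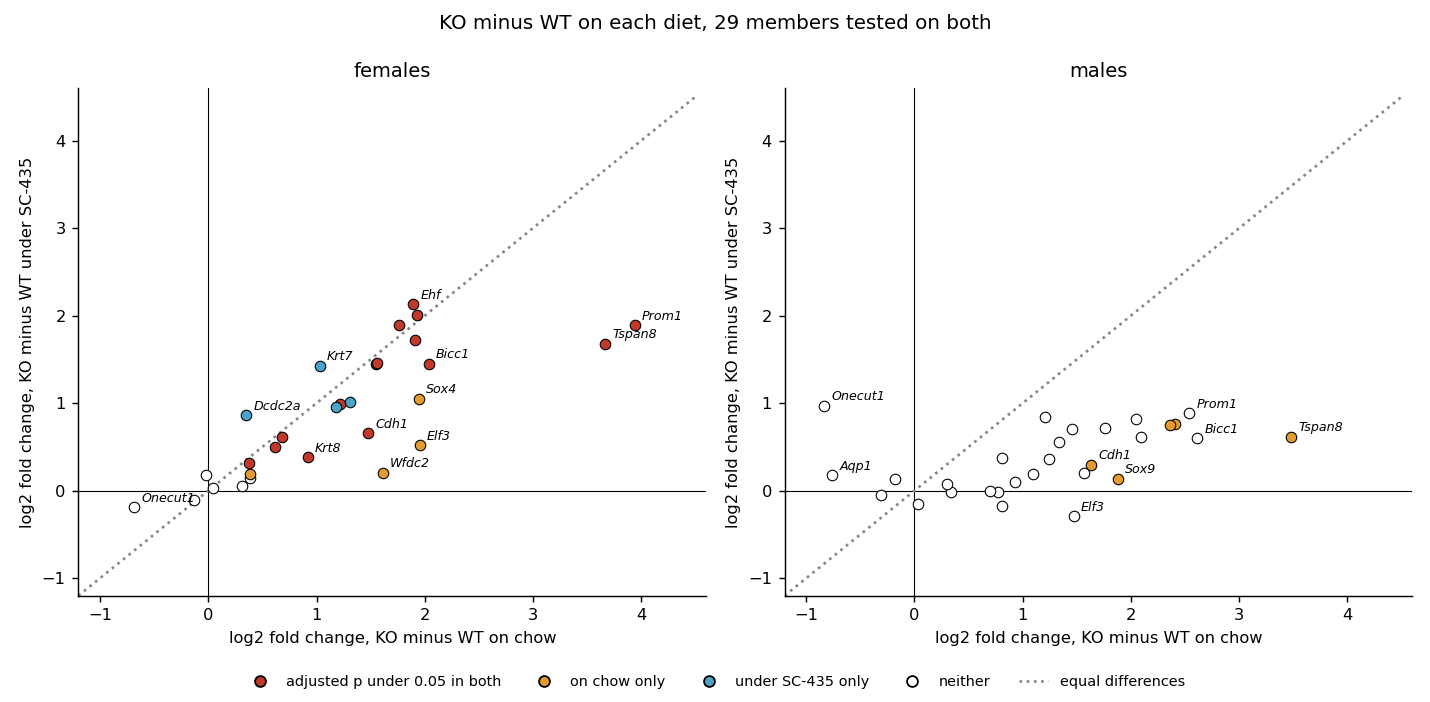
Log2 fold change of KO against WT on chow (horizontal) and under SC-435 (vertical) for the 29 members tested on both diets, in females (left) and males (right), each from 4 mice against 4 with no mouse shared between the axes; the dotted line marks equal differences and colours mark adjusted p under 0.05. In females 15 members pass on both diets, with Prom1 and Tspan8 far below the line and Ehf and Krt7 above it, and in males 0 pass under SC-435 in edgeR's test.

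Set against WT livers on chow, KO females on SC-435 had 12 of 30 members tested higher and 1 (*Onecut1*) lower, against 8.73% and 7.30% of all 15881 genes. The members' median was 0.50. The genes that stayed higher included *Cd24a* (1.58 ± 0.30, adjusted p = 0.0055), *Tspan8* (1.48 ± 0.24, adjusted p = 0.0029), *Muc1* (1.41 ± 0.28, adjusted p = 0.0077) and *Epcam* (1.26 ± 0.28, adjusted p = 0.012). *Cdh1* (-0.11 ± 0.10, adjusted p = 0.48), *Anxa4* (0.05 ± 0.08, adjusted p = 0.71) and *Pkd2* (0.03 ± 0.08, adjusted p = 0.82) did not pass. The count of 12 became 7 without WT chow mouse 2 or without KO SC-435 mouse 2 or 3. In males 0 of 29 members passed in edgeR's test in either direction, with 4 at an unadjusted p under 0.05 and 1 passing as higher in DESeq2. Of all 15395 genes 8.24% had an unadjusted p under 0.05, and 0.169% were called higher and 0.0390% lower. Without the first WT chow library, 4 were higher (*Krt8*, *Krt18*, *Vtcn1* and *Dcdc2a*) and 1 (*Onecut1*) was lower, against 6.47% and 5.70% of all genes. *Krt18* turned from -0.10 ± 0.36 with that library to 0.46 ± 0.09 (adjusted p = 0.011) without it.

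In WT mice few members passed as changed with SC-435. In females 1 of 29 rose (*Vtcn1*) and 3 fell (*Cdh1*, *Prom1* and *Onecut1*), against 2.40% and 1.88% of all 15739 genes. The members' median was -0.38, with 24 of 29 negative, against -0.003 over all genes. *Cdh1* went from 37.6, 47.4, 49.4 and 45.6 to 27.9, 20.8, 30.3 and 27.5 CPM (-0.76 ± 0.13, adjusted p = 0.014). *Prom1* went from 3.57, 2.35, 2.96 and 3.02 to 1.4, 1.22, 0.990 and 1.66 CPM (-1.18 ± 0.20, adjusted p = 0.015). Neither pair of groups overlapped. In males 0 of 29 passed in edgeR's test, with 3 at an unadjusted p under 0.05 and 1 in each direction in DESeq2. Their median was -0.16, with 21 of 29 negative, against -0.03 over all genes. Of all 15211 genes 6.12% had an unadjusted p under 0.05, and 0.0131% were called higher and 0.0263% lower. Without the first WT chow library, *Vtcn1* rose and *Onecut1* fell, against 1.41% and 1.12% of all genes.

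*Vtcn1*, which encodes the B7-family protein B7-H4, rose with SC-435, where 4 surface genes fell in KO females and 8 in KO males. It was at 1.09, 1.39, 1.19 and 1.23 CPM in female WT livers on chow and 5.20, 3.19, 5.03 and 5.89 CPM in those on SC-435. The female KO livers had 0.832, 2.30, 2.24 and 0.752 CPM on chow and 5.38, 5.37, 5.24 and 4.02 CPM on SC-435. In males the WT livers were at 0.312, 1.5, 0.619 and 0.544 CPM on chow and 3.88, 2.48, 3.08 and 3.08 CPM on SC-435, and the KO livers at 1.38, 0.668, 0.927 and 0.757 CPM and 3.29, 3.43, 1.48 and 4.19 CPM. In all 4 pairs of groups every liver on SC-435 was above every liver on chow. The log2 fold changes with SC-435 were 1.97 ± 0.20 (adjusted p = 0.0024) in WT and 1.70 ± 0.35 (adjusted p = 0.011) in KO females. In males they were 2.06 ± 0.44 (adjusted p = 0.25) in WT and 1.74 ± 0.35 (adjusted p = 0.014) in KO mice, and 1.82 ± 0.36 (adjusted p = 0.037) in WT mice without the first chow library. *Vtcn1* did not differ by genotype beyond the threshold on either diet (0.32 ± 0.37 on chow and 0.05 ± 0.18 on SC-435 in females).

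*Onecut1*, which encodes the liver and duct transcription factor HNF6, varied widely between mice. In female WT livers it was at 6.36, 16.9, 42.8 and 38.4 CPM on chow and 7.43, 4.63, 4.20 and 3.34 CPM on SC-435, and in female KO livers at 6.59, 4.55, 12.6 and 41.8 CPM and 4.49, 3.28, 4.54 and 4.82 CPM. In males the WT livers were at 24.8, 80.6, 126 and 92.6 CPM on chow and 9.96, 7.76, 37.9 and 25.4 CPM on SC-435, and the KO livers at 4.94, 4.47, 90.8 and 76.3 CPM and 35.9, 67.3, 23.5 and 31.4 CPM. In each group on chow the highest liver was at least 5 times the lowest. In WT males that lowest liver was the library that stood apart, and the others of the group lay at 80.6 to 126 CPM. *Onecut1* was lower with SC-435 in WT females (-2.42 ± 0.52, adjusted p = 0.033) and in treated KO females against WT on chow (-2.61 ± 0.47, adjusted p = 0.0048). The call in WT females was kept in 1 of 8 fits that left out 1 mouse (highest adjusted p = 0.11). *Onecut2* did not pass in females, at 117 ± 30.4 CPM in WT and 115 ± 19.3 CPM in KO livers on chow (-0.02 ± 0.20, adjusted p = 0.95). In males the first WT chow library was at 14.5 CPM where the other 3 were at 129 to 145 CPM. Without that library *Onecut2* was lower in male KO livers (-0.56 ± 0.10, adjusted p = 0.024), and with it -0.18 ± 0.55 (adjusted p = 0.90).

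**Figure D5:**
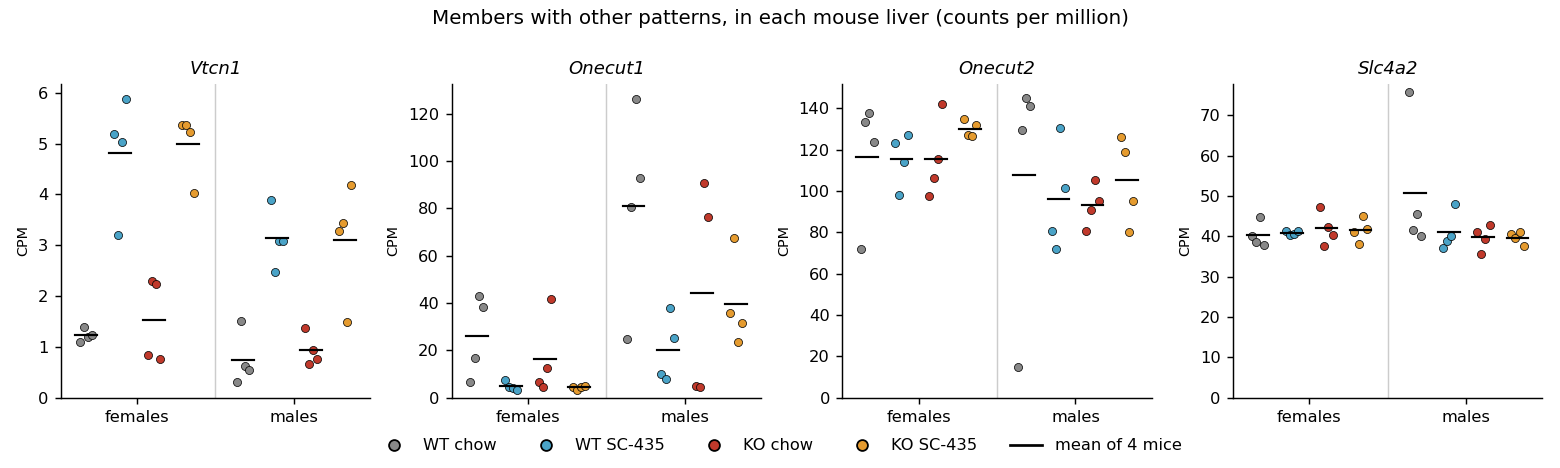
Level of Vtcn1, Onecut1, Onecut2 and Slc4a2 in each of the 32 livers, in CPM on a linear axis from 0; points are mice, bars are means of 4 mice and colours give genotype and diet. Vtcn1 is higher on SC-435 in both genotypes and sexes, Onecut1 spreads widely on chow, and for Onecut2 and Slc4a2 1 male WT chow library lies at 14.5 and 75.7 CPM, away from the rest of its group.

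The response to SC-435 was tested for a difference between the genotypes in fits over all 16 mice of a sex. In females 33 members were tested and the difference passed for 3, *Prom1* (-2.06 ± 0.36, adjusted p = 0.016), *Tspan8* (-2.0 ± 0.48, adjusted p = 0.040) and *Cdh1* (-0.83 ± 0.21, adjusted p = 0.0484), each falling further in KO than in WT mice. Of all 16882 genes 1.78% had a difference in this direction and 0.859% in the other. *Prom1* kept the call in 16 of 16 fits that left out 1 mouse. The count was 1 in 12 of these fits, namely without any of the 4 WT chow mice, KO chow mouse 1, 2 or 3, WT SC-435 mouse 1 or 4, or KO SC-435 mouse 1, 2 or 3. In males 0 of 31 passed in edgeR's test, with 14 at an unadjusted p under 0.05 and 4 passing as lower in DESeq2. Of all 16555 genes 13.3% had an unadjusted p under 0.05, and 0.0785% were called lower and 0.0121% higher. The smallest p values were those of *Tspan8* (-2.83 ± 0.64, adjusted p = 0.096) and *Epcam* (-1.61 ± 0.41, adjusted p = 0.13). Without the first WT chow library *Krt8* (-1.21 ± 0.26, adjusted p = 0.0488) and *Krt18* (-1.34 ± 0.27, adjusted p = 0.0466) passed, where 0.396% of all genes were lower and 0.301% higher.

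The sexes were compared by the same kind of test. For the difference between KO and WT on chow, 0 of 34 members differed between females and males in edgeR's test, with 1 at an unadjusted p under 0.05 and 0 in DESeq2. Of all 17026 genes 6.26% had an unadjusted p under 0.05, and 0.0117% were called in each direction. Without the first male WT chow library 0 of 34 passed as well, against 0.190% and 0.241% of all genes. The smallest p values were those of *Prom1*, whose rise was larger in females (1.46 ± 0.64, adjusted p = 0.75), and *Aqp1* (0.68 ± 0.37, adjusted p = 0.83). Without that library they were 1.67 ± 0.66 (adjusted p = 0.28) for *Prom1* and 0.18 ± 0.12 (adjusted p = 0.57) for *Aqp1*, and the smallest p value was that of *Atp1b1* (0.50 ± 0.17, adjusted p = 0.23). For the response to SC-435 in KO mice, 0 of 34 passed in edgeR's test, with 9 at an unadjusted p under 0.05 and 1 in DESeq2. Of all 17069 genes 12.5% had an unadjusted p under 0.05, and 0.0996% were called higher and 0.111% lower in this difference (females minus males). The smallest p values were those of *Wfdc2*, which fell further in females (-1.44 ± 0.34, adjusted p = 0.11), and *Dcdc2a* (0.69 ± 0.21, adjusted p = 0.18).

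Among the KO livers on chow, single mice were high or low for many members at once. Over the 31 members with a test, KO chow mouse 2 was the highest of the 4 females for 20 members and mouse 4 the lowest for 21. Among the males mouse 2 was the lowest for 24, and mice 3 and 4 were each the highest for 14. Such ranks were not counted over all genes, so they do not set the members apart from other genes. Each mouse was scored by the median over these 31 members of its log2 level minus the log2 of the mean level of the sex-matched WT chow group. Before taking logs, 0.1 CPM was added to both. *Cldn4* and *Cftr*, which passed the filter only through KO livers, are among the 31, and the male WT mean includes the library that stood apart. No scores without them are given. The scores of female KO livers on chow ran from 0.68 to 1.52 (1.23 ± 0.38, SD, n = 4), and those of male ones from 0.55 to 1.59 (1.11 ± 0.48, SD, n = 4). Treated KO livers scored 0.36 to 0.72 in females and -0.01 to 0.20 in males. Each untreated male KO liver was above every treated one, while the highest treated female (0.72) was above the lowest untreated female (0.68). WT females scored -0.21 to 0.22 on chow and -0.32 to -0.25 on SC-435, without overlap. WT males scored -0.30 to 0.15 on chow and -0.29 to 0.02 on SC-435. No test was run on these scores.

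Further genes of ducts and their pathways, in 4 lists written with earlier results of these data known, were counted in the same fits, where 9.83% of all genes rose and 5.05% fell in KO females on chow and 9.23% fell and 8.56% rose with SC-435. Of 16 genes of Notch, YAP and duct fate, 7 rose in KO females on chow and 3 fell with SC-435. By p the first were *Klf5*, an epithelial zinc finger factor (2.21 ± 0.43, adjusted p = 0.0088), and *Wwtr1*, the YAP partner TAZ (0.65 ± 0.14, adjusted p = 0.013). Of 18 tested genes of other biliary epithelium, 12 rose and 7 fell with SC-435. By p the first were osteopontin, *Spp1* (36 ± 12.9 CPM in WT and 191 ± 71.2 CPM in KO females on chow, 2.40 ± 0.30, adjusted p = 0.0020), and the hyaluronan receptor *Cd44* (1.11 ± 0.15, adjusted p = 0.0022). Of 11 tested genes of biliary bile acid and ion transport, 3 rose, and 2 fell and 1 rose with SC-435. They were led by the calcium release channel *Itpr3* (1.72 ± 0.19, adjusted p = 0.0016) and the bile acid exporter subunit *Slc51b* (2.46 ± 0.54, adjusted p = 0.015, and -3.81 ± 0.54, adjusted p = 0.0029 with SC-435). Of 10 polycystic and ciliary genes 2 rose, *Glis3* (1.79 ± 0.27, adjusted p = 0.0029) and *Kif3a* (0.50 ± 0.15, adjusted p = 0.0476). That count of 2 is close to the share over all genes. In none of these 4 lists did a gene fall in KO females on chow. Some of these genes, *Klf5* and *Slc51b* among them, passed the filter only through KO livers and had to differ. Of the others 5 of 14, 9 of 13, 2 of 10 and 2 of 10 rose in the 4 lists, and 2, 5, 1 and 0 fell with SC-435.

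In males on chow the same lists had 0 of 16, 2 of 17, 1 of 11 and 1 of 10 genes higher in KO livers and 1 (*P2ry2*, in the transport list) lower, against 0.933% and 0.151% of all genes. Without the first WT mouse 3 of 16, 9 of 17, 3 of 11 and 1 of 10 were higher and 1, 0, 2 and 0 lower, against 4.38% and 2.92% of all genes. Among those higher, *Klf5*, *Esrp1*, *Itga2* and *Slc51b* passed the filter with all mice only through KO livers, so they had to differ. Of the genes that did not depend on KO livers, 0 of 14, 2 of 13, 1 of 10 and 1 of 10 were higher with all mice. *Spp1* rose (21.5 ± 7.0 CPM in WT and 467 ± 478 CPM in KO males, 4.48 ± 0.77, adjusted p = 0.038), as did *Glis3* (2.21 ± 0.42, adjusted p = 0.0477). The transport gene that rose was *Slc10a2*, named after its value was seen, which encodes IBAT itself and is known from cholangiocytes as well as from ileum (2.62 ± 0.33, adjusted p = 0.014). With SC-435 in KO males, 5 of 16, 10 of 17, 3 of 11 and 2 of 10 genes of these lists fell, *Spp1* among them (-3.43 ± 0.67, adjusted p = 0.012), and 0, 1, 2 and 0 rose, against 8.36% and 8.80% of all genes. Of those that fell, *Klf5*, *Grhl2*, *Itga2* and *Slc51b* passed the filter only through KO livers. Without genes of that kind 3 of 14, 9 of 13, 2 of 10 and 2 of 10 fell.

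Markers of other liver cells were counted in the same comparisons, to be read against 9.83% of all genes higher and 5.05% lower in KO females on chow and 9.23% lower with SC-435. In KO females on chow, 9 of 11 macrophage genes tested rose, including *Adgre1* (1.10 ± 0.12, adjusted p = 0.0014) and *Cd68* (1.25 ± 0.17, adjusted p = 0.0023), and 10 of 11 fell with SC-435. Their summed level was 394 to 468 CPM in WT on chow, 646 to 977 CPM in KO on chow and 325 to 507 CPM in treated KO females. Of the stellate cell and portal fibroblast genes 4 of 10 rose and 3 fell with SC-435 (170 to 239, 291 to 725 and 262 to 311 CPM), with *Des* (-0.08 ± 0.17, adjusted p = 0.80) and *Lrat* (0.38 ± 0.38, adjusted p = 0.54) not passing. All 3 neutrophil genes tested of 8 rose and fell (2.94 to 3.85, 5.31 to 12.0 and 2.39 to 3.75 CPM), *S100a8* (2.01 ± 0.34, adjusted p = 0.0052) and *S100a9* (1.87 ± 0.47, adjusted p = 0.025) among them. Of these, *S100a8* and the macrophage gene *Gpnmb* passed the filter only through KO livers. Hepatocyte genes went the other way, with 1 of 10 higher and 5 lower in KO females on chow. Their sum was 60230 to 81960 CPM in KO and 98630 to 124200 CPM in WT females, and *Alb* (-0.82 ± 0.17, adjusted p = 0.013) and *Ttr* (-0.61 ± 0.16, adjusted p = 0.027) were both lower.

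Endothelial genes did not pass in KO females on chow (0 of 8, *Pecam1* -0.01 ± 0.09, adjusted p = 0.98 and *Cdh5* 0.17 ± 0.12, adjusted p = 0.39), at sums of 272 to 362 CPM in KO and 306 to 355 CPM in WT livers. Neither did proliferation genes (0 of 6, *Mki67* 0.36 ± 0.54, adjusted p = 0.69 and *Top2a* 0.39 ± 0.48, adjusted p = 0.62), at 6.75 to 26.6 and 4.87 to 20.3 CPM. Of the T and B lymphocyte genes 1 of 8, *Cd8a*, rose, close to the share of all genes, and it passed the filter only through KO livers, with *Cd3e* (0.67 ± 0.39, adjusted p = 0.28) and *Cd3g* (0.75 ± 0.37, adjusted p = 0.20) not passing, at 4.76 to 10.9 and 2.84 to 5.02 CPM.

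Of tissues that border the liver or could come with it, 0 of 6 mesothelial genes were higher and 1, *Upk3b* (-1.24 ± 0.35, adjusted p = 0.042), was lower in KO females on chow, with *Msln* not passing (0.06 ± 0.50, adjusted p = 0.95). Their sums were 2.84 to 11.2 CPM in KO and 7.31 to 11.0 CPM in WT livers. Of the pancreatic acinar genes 2 of 8 were tested and 1, *Cela1* (-1.79 ± 0.44, adjusted p = 0.023), was lower, at sums of 6.58 to 13.4 CPM in KO and 14.3 to 62.8 CPM in WT livers, and *Prss2* was too low for the test. Of the gallbladder and mucous genes 3 of 7 were tested. The trefoil factor *Tff2* had 4 to 9 counts in WT and 26 to 54 in KO females on chow, and *Tff3* had 0 to 1 and 18 to 54. Both passed the filter only through KO livers, so their calls as higher describe counts that had to differ, and no fitted size is given. Their sums were 6.27 to 6.96 CPM in KO and 3.88 to 4.86 CPM in WT livers, and the mucins *Muc5b* and *Muc5ac*, the first of the list, had 0 to 3 counts in every liver of both sexes.

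In males on chow, 2 of 11 macrophage genes (*Gpnmb* and *Trem2*) and 1 of 3 gallbladder and mucous genes (*Tff3*) passed as higher, against 0.933% of all genes. In the hepatocyte, stellate, endothelial, neutrophil, lymphocyte, mesothelial, acinar and proliferation lists 0 genes passed in edgeR's test. At an unadjusted p under 0.05, a cut that 15.4% of all genes met, there were 6 of 6 proliferation genes (median log2 fold change 3.04) and 3 of 3 tested neutrophil genes (2.07). So were 5 of 10 stellate and fibroblast genes, 4 of 11 macrophage genes, 1 of 10 hepatocyte, 2 of 8 endothelial, 2 of 6 mesothelial and 1 of 2 tested acinar genes. Proliferation genes summed to 8.19 to 156 CPM in male KO and 3.67 to 7.28 CPM in male WT livers on chow, and neutrophil genes to 5.35 to 14.8 and 2.08 to 3.68 CPM, both without overlap. The sums were 366 to 1453 and 299 to 494 CPM for macrophage genes and 219 to 938 and 137 to 169.5 CPM for stellate and fibroblast genes. Gallbladder and mucous genes summed to 11.1 to 12.1 and 4.48 to 5.52 CPM. Without the first WT mouse, 4 stellate and fibroblast (*Des*, *Pdgfrb*, *Col1a1* and *Col3a1*), 2 macrophage, 2 neutrophil and 2 gallbladder and mucous genes were higher and 2 endothelial genes (*Stab2* and *Kdr*) lower, against 4.38% and 2.92% of all genes. Of these lists *S100a8*, *S100a9*, *Gpnmb* and *Tff2* passed the filter only through KO livers, where they were high, so they had to differ. Of the others, 1 of 10 macrophage, 0 of 1 neutrophil and 1 of 2 gallbladder and mucous genes were called higher with all mice.

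With SC-435 in KO males 4 of 11 macrophage, 5 of 10 stellate and fibroblast, all 3 tested neutrophil and 2 of 3 gallbladder and mucous genes fell, and 3 of 8 endothelial genes rose, against 8.36% and 8.80% of all genes. Without *S100a8*, *S100a9*, *Gpnmb* and *Tff2*, which passed the filter only through KO livers here too, 3 of 10 macrophage genes fell. So did 1 of 1 neutrophil and 1 of 2 gallbladder and mucous genes. Of the proliferation genes 1 of 6 (*Ccnb1*) fell, with a median of -2.47 and 6 of 6 at an unadjusted p under 0.05, against 35.7% of all genes. Of the mesothelial genes 1 of 6 (*Wt1*) fell. The part of these cells in the changes of the biliary genes was not tested.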

How the data were processed

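RNA of 32 mouse livers was sequenced after TRIzol extraction and poly-T bead selection. Per the labels and the submitters' processing notes, the tools named were HISAT2 2.0.5, featureCounts 1.5.0-p3, DESeq2 1.20.0 and GATK 4.1.1.0 on mm10. The annotation version and the strand setting are not given in the sources used here. The authors deposited raw read counts and FPKM per gene and mouse, the gene length and, for 7 comparisons, their own fold changes and p-values. The counts and, for levels per kb, the deposited gene length were used, and the deposited FPKM values and the authors' comparisons were not used.

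Each comparison of 4 against 4 mice was fitted with edgeR 4.0.16 (R 4.3.3) on its 8 libraries, and interactions on 16, with default filtering on low counts (filterByExpr), TMM factors, the quasi-likelihood test and Benjamini-Hochberg adjustment over all genes tested, with a threshold of 0.05. Levels in CPM were computed with TMM factors over all 32 libraries. DESeq2 1.42.0, 2 other scalings, 2 other filters, a single fit per sex, a replicate block and leaving out each mouse were the alternatives tried. The fits were tested on simulated counts with known changes. Promoter windows came from RefSeq on GRCm38.p6 and exon overlaps from the GENCODE M21 annotation. All replicates are separate mice. No label pairs them by number, and they were treated as unpaired. Over the comparisons, same-numbered mice correlated at -0.15 to 0.15 after removal of group means. The depth of 36476021 to 44771350 counts per library makes counting error small beside the spread between mice for members with many counts. For members with few counts it need not be small, and counts are given for the lowest of these. Others with few counts include *Elf3* (24 to 36 in female WT livers on chow) and *Tspan8* (20 to 31 in male WT livers on SC-435).

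The members and all gene lists were chosen with earlier results of these data known. Values by mouse are given, for each role, for the 3 members with the smallest p in KO against WT on chow in females and the 3 in males, for members singled out with their values seen (*Krt23* in females, *Vtcn1*, *Onecut1*, and *Cdh1* and *Prom1* in WT females), and for related lists the 2 genes with the smallest p in females and those named as seen.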

Additional observations from a re-analysis of the deposited data

Results flagged for a closer look

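Of 176 groups of 4 mice examined, over the 22 members chosen for values by mouse, 11 held a mouse apart from the other 3 by Dixon's test, where chance flags about 1 in 20 groups. Of these, 5 were in the male WT chow library 1, which had 386 CPM of *Aqp1* (the others 141 to 148 CPM), 419 of *Krt18*, 550 of *Krt8*, 3.35 of *Krt19* and 6.43 of *Pkd2*. In WT females on chow, mouse 4 stood apart for *Aqp1* (174 CPM) and mouse 3 for *Dcdc2a* (6.21 CPM). Among WT males on SC-435, mouse 4 stood apart for *Elf3* (1.58 CPM) and *Tspan8* (0.831 CPM). Treated KO mice stood apart for *Atp1b1* (male mouse 3, 78.1 CPM) and *Pkhd1* (female mouse 4, 17.5 CPM).

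The response to SC-435 differed between female KO and WT mice by -2.06 on the log2 scale for *Prom1*, -2.0 for *Tspan8* and -0.83 for *Cdh1* in edgeR's interaction test (adjusted p = 0.016, 0.040 and 0.0484).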

How the results depend on the processing

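DESeq2 moved 11 of 28 counts of members passing by more than 1.5 times. It called 16 higher (6 in edgeR) for KO against WT on chow in males, 2 higher (1) with SC-435 in KO females, 5 lower (3) with SC-435 in WT females, 2 lower (1) for treated KO against WT on chow in females, 1 higher and 1 lower (0 and 0) with SC-435 in WT males, 1 higher (0) each for treated KO males against WT on chow and under SC-435, 5 lower (3) and 4 lower (0) in the female and male interactions, and 1 lower (0) in the sex by SC-435 interaction. The replicate block gave 2 lower (1) for treated KO against WT on chow in females, 0 higher (6) for KO against WT on chow in males, 1 higher (2) and 13 lower (20) with SC-435 in KO males and 1 lower (3) in the female interaction. Replicate numbers name separate mice and no label pairs them, so the block carries no design information. In no comparison of 2 groups did all 4 mice correlate best with their own number. The most was 3 of 4, for KO against WT on chow in males, where the block took the count to 0. A single fit of the 4 groups of a sex gave 18 higher (6) for KO against WT on chow in males and 1 higher each with SC-435 in KO males (2), in WT males (0) and for treated KO males against WT on chow (0). With library size only, with no filter on low counts and with a mean of at least 50 counts, 1 member (2) rose with SC-435 in KO males. The cause of these shifts was not tested. Median-of-ratios size factors kept all 28 counts within 1.5 times. The share of all genes called under these other settings is not given. A shift in the calls of the members therefore cannot be told apart from a shift over all genes.

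Leaving out each mouse in turn, the members passing ranged from 17 to 23 higher for KO against WT on chow in females, 1 to 2 higher and 8 to 19 lower with SC-435 in KO females, 7 to 11 higher and 1 to 2 lower for treated KO females against WT on chow, and 1 to 4 lower in the female interaction. In males they ranged from 0 to 17 higher and 0 to 1 lower for KO against WT on chow, 1 to 1 higher and 10 to 22 lower with SC-435 in KO mice, 0 to 1 in each direction with SC-435 in WT mice, and 0 to 4 higher and 0 to 1 lower for treated KO against WT on chow. *Krt18* reversed in the last of these, from -0.10 to 0.46 without male WT chow mouse 1 (range -0.28 to 0.46), and no other called member reversed. Among fits that left out 1 mouse, the share of all genes called is given only for those without male WT chow mouse 1. The ranges alone do not set the members apart from all genes. Scaling by library size only moved the median of all genes by 0.19 and 0.25 for KO against WT on chow and by -0.16 and -0.20 for SC-435 in KO, in females and males, and moved 13 of 176 group levels by more than 1 SD. Depth limits the members with few counts: *Itgb6*, *Sctr* and *Ggt1* were below the filter for KO against WT on chow and were not tested there.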
